A study of Mus musculus with 20 samples.

Results

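The lungs of mouse embryos lacking the glucocorticoid receptor (GR, gene Nr3c1) in mesenchymal cells were compared with control lungs at E18.5, shortly before birth. The comparison used 10 of the 20 arrays in the study, 5 of mutants and 5 of controls, and covered the 8068 genes whose signal could be measured. Each array held biotin-labelled RNA from the left lung lobe of 1 animal of the C57Bl6 background. Control animals were labelled GR flox (control), and mutants were labelled GRCol1-Cre. In the mutants Cre was expressed from a bacterial artificial chromosome carrying the gene locus of collagen type (I)-alpha-2, a gene of fibroblasts and other matrix-producing cells. The floxed receptor gene was common to both groups, and no group with Cre and an intact receptor gene was used here, so the effects of Cre and of receptor loss cannot be told apart. The other 10 arrays, from E16.5 embryos of the same 2 genotypes, served to estimate the spread between animals and to show the level of a gene earlier in development.

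Glucocorticoids rise in the fetal circulation towards birth and prepare the lung for breathing. The hormone binds GR in the cytoplasm, and the receptor then moves to the nucleus, where it binds DNA as a pair of molecules at inverted half-sites and changes the transcription of nearby genes. In late gestation the lung wall thins, mesenchymal cells stop dividing, fibroblasts that store lipid appear next to the future alveoli, flat type I cells and surfactant-making type II cells form the epithelium, and capillaries come to lie under the type I cells. GR is present in mesenchyme, epithelium and endothelium, and only the first of these is the stated target of the Cre used here.

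Values are log2 signals of probe sets as deposited. A probe set is a group of short probes for 1 transcript, and a log2 signal below 4 is called dim. Array medians lay between 5.70 and 5.87. The correlation between arrays of one group was 0.965 to 0.995 in the E18.5 controls and 0.976 to 0.995 in the E18.5 mutants. By Xist and Y-linked genes, 3 of 5 controls and 2 of 5 mutants were female at E18.5, and 1 of 5 controls and 5 of 5 mutants at E16.5. Lung markers were bright: surfactant protein C (Sftpc) read 15.19 ± 0.03 in controls and 15.15 ± 0.06 in mutants (SD, n = 5), the endothelial adhesion molecule Pecam1 read 10.02 ± 0.13 in controls and 9.43 ± 0.14 in mutants (SD, n = 5) and the fibroblast collagen Col1a1 read 11.17 ± 0.29 in controls and 11.07 ± 0.19 in mutants (SD, n = 5). The transcription factor Nkx2-1, which marks lung epithelium, was dim on every array with a highest value of 2.63, and was not tested.

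One control, replicate 3, lay between the stages. On an axis from the mean of the E16.5 controls (0) to the mean of the E18.5 controls (1), with each control left out of its own reference, control 3 was at 0.704 and the other 4 controls at 1.02 to 1.09. The 5 mutants lay at 0.452 to 0.769. Control 3 was thus within the range of the mutants on this axis, although its Nr3c1 level was that of a control. The E18.5 differences below are therefore given with all arrays and without control 3. Among the 2784 genes called at E18.5, control 3 lay on the mutant side of all other controls in 1750. The same count for the other controls, or for genes not called, is not given here. Its mean over 6 erythroid genes was also high, at 10.40 where the other 4 controls had 8.73 to 9.31 and the E16.5 controls 10.03 to 10.28.

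Nr3c1 lies on chromosome 18 and was lower in every mutant than in every control. Its brightest probe set read 9.57, 9.47, 9.02, 9.49 and 9.53 in controls 1 to 5 and 7.79, 7.57, 8.05, 7.67 and 7.89 in mutants 1 to 5. Control 3 was the lowest control and still stood clear of the highest mutant. Nr3c1 fell by 1.62 (SE 0.17, limma adjusted p = 1.62e-06), which left 32.5% of the control signal, and without control 3 it fell by 1.72 (adjusted p = 8.16e-07). Another bright probe set fell to 35.0% of control. The dimmest one read 34.0% of control, but its mutant mean of 3.25 was dim, which limits that value. The whole lobe was measured, so RNA of epithelial and endothelial cells is part of this signal, and no source used here states whether the probes lie inside the floxed segment.

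Of the 8068 genes, 1502 (18.6%) were called higher in the mutants and 1282 (15.9%) lower, where called means a limma adjusted p under 0.05. The median difference over all genes was 0.03, and the 5th and 95th percentiles were -0.77 and 0.68. Without control 3 the counts were 1851 higher (22.9%) and 1504 lower (18.6%). Both fits called 2646 genes in the same direction and 0 in opposite directions, while 138 were called with all arrays only and 709 without control 3 only. Large differences were more often falls: 253 genes fell and 171 rose at least 2-fold, and 60 fell and 12 rose at least 4-fold. All 5 mutants lay beyond all 5 controls in 1404 genes (17.4%), of which 1315 were called. Since 34.5% of the genes passed, a call by itself does not set a gene apart. The 12 largest falls and 12 largest rises named below were taken only from genes called in both fits whose groups did not overlap. They are therefore not the largest of all differences. Car4 (-3.86), Col9a1 (3.26) and Cldn6 (3.18) overlapped between groups and are not among them, although several of the named genes changed less.

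**Figure D1:**
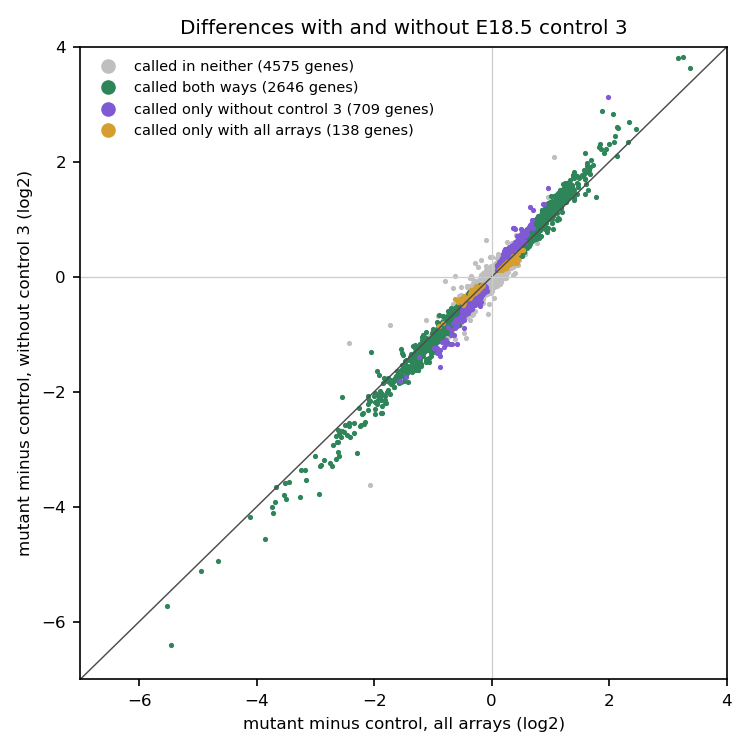
Each point is 1 of the 8068 genes, with its E18.5 mutant minus control difference (log2) from all arrays on the horizontal axis and from the fit without control 3 on the vertical axis. The diagonal marks equal differences: the 2646 genes called both ways lie along it, and the large rises and falls lie mostly farther from 0 without control 3.

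The largest fall was in Slc10a6, which encodes a transporter for sulfated steroid hormones and is induced by glucocorticoids. It read 8.08, 7.92, 6.85, 7.22 and 7.93 in controls 1 to 5 and 1.96, 2.07, 2.10, 2.09 and 2.10 in mutants 1 to 5. The mutants lay at the floor of the scale, far below the lowest control, which was control 3. Slc10a6 fell by 5.53 (SE 0.17, adjusted p = 5.00e-14, -5.72 without control 3), and since the mutant values were dim the size of the fall is limited by that floor. Of the 98 named lower genes, 70 had a promoter window in the motif scan, and those without one were not searched. Named genes on the chromosome of the receptor gene were left out of the next count. Among the others, 2 had a window that held an extended GR motif, GNACANNNTGTNC. Slc10a6 was one of them, and both are shown for that reason. The sequences are the 250 bases before the annotated start in RefSeq (build GRCm38.p6), with the motif in capitals.

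The Slc10a6 sequence is chr5:103629404-103629653 on the minus strand, with the motif beginning 163 bases before the start. The Txnip sequence, of a glucose-responsive inhibitor of thioredoxin that fell by 0.51 (SE 0.14, adjusted p = 0.00785, -0.59 without control 3), is chr3:96557707-96557956 on the plus strand, with the motif beginning 172 bases before the start.
Slc10a6: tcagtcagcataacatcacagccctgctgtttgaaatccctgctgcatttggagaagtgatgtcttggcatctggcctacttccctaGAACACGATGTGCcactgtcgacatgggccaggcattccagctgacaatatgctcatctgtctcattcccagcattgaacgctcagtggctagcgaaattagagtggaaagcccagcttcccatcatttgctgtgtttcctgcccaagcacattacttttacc
Txnip: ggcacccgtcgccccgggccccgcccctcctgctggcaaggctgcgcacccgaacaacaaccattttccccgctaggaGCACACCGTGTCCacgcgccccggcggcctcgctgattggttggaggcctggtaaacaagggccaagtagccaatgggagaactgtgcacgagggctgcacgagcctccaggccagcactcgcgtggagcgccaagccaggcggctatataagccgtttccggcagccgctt
The motif is its own reverse complement, so 1 scan covers both strands. Of 27025 genes with a promoter window of 250 bases before to 50 after the start, 0.537% held this motif, and 7.9% held its core ACANNNTGT, which lies inside it. Among the 6577 tested genes with a window the core was found in 5.08%, among the 1024 called lower in 6.93%, among the 1218 called higher in 3.94% and among the 4335 not called in 4.96%. The longer motif was found in 7 genes called lower (0.684%), 5 called higher (0.411%) and 13 not called (0.3%). Among genes called with at least a 2-fold change it was found in 3 of 183 that were lower (1.64%) and 2 of 130 that were higher (1.54%). Of the 12 genes with the largest falls, 8 had a window and 2 of them held the core. Of the 12 with the largest rises, 9 had a window and 0 held it. These counts describe letters in a short window and not binding, and no test was made.

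Genes of glucocorticoid supply and response were among the deepest falls. Hsd11b1, the enzyme that regenerates active glucocorticoid inside cells, read 12.43, 12.54, 12.18, 12.48 and 12.42 in controls 1 to 5 and 8.13, 8.004, 8.66, 7.62 and 9.03 in mutants 1 to 5. It was bright in every control, with control 3 close to the rest, and the groups were far apart. Hsd11b1 fell by 4.12 (SE 0.43, adjusted p = 1.40e-06, -4.18 without control 3). Lcn2, a lipocalin that binds bacterial iron carriers, read 9.53, 9.68, 9.26, 9.31 and 9.72 in controls 1 to 5 and 4.50, 4.35, 9.07, 3.69 and 8.29 in mutants 1 to 5. Mutant 3 was just under the lowest control, mutant 5 was lower and mutants 1, 2 and 4 were far below, so the spread within the mutants was wide. Lcn2 fell by 3.52 (SE 0.73, adjusted p = 0.00129, -3.58 without control 3).

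Enzymes that modify small molecules made up a further group of the 12 largest falls. Inmt, an N-methyltransferase found in lung fibroblasts, read 9.38, 8.71, 4.38, 9.10 and 9.25 in controls 1 to 5 and 2.30, 2.39, 3.36, 2.39 and 3.09 in mutants 1 to 5. Control 3 lay well below the other controls and just above the highest mutant. Inmt fell by 5.46 (SE 0.64, adjusted p = 5.02e-06, -6.40 without control 3), with all mutants dim. Xdh, the xanthine dehydrogenase that ends purine breakdown, read 9.37, 8.997, 7.83, 9.21 and 9.38 in controls 1 to 5 and 3.86, 3.65, 5.44, 3.88 and 4.62 in mutants 1 to 5. Its mutants did not reach control 3, the lowest control. Xdh fell by 4.67 (SE 0.47, adjusted p = 7.51e-07, -4.95 without control 3). The dipeptidase Dpep1, a membrane enzyme that cleaves cysteinyl-glycine and leukotrienes, read 10.41, 10.22, 9.44, 10.14 and 10.37 in controls 1 to 5 and 4.79, 4.72, 6.02, 4.44 and 5.85 in mutants 1 to 5. Control 3 was again lowest among controls and clear of the mutants. Dpep1 fell by 4.95 (SE 0.44, adjusted p = 2.17e-07, -5.12 without control 3). The flavin-containing monooxygenases Fmo2 and Fmo1, which oxidize drugs and amines, lie on chromosome 1. Fmo2 read 9.998, 9.93, 9.03, 10.37 and 10.23 in controls 1 to 5 and 6.47, 6.01, 6.31, 6.22 and 6.09 in mutants 1 to 5 and fell by 3.69 (SE 0.39, adjusted p = 1.66e-06, -3.91 without control 3). Fmo1 read 9.23, 9.24, 9.28, 9.10 and 9.36 in controls 1 to 5 and 4.52, 5.94, 6.26, 4.99 and 6.18 in mutants 1 to 5, with control 3 inside the control range, and fell by 3.67 (SE 0.44, adjusted p = 7.04e-06, -3.66 without control 3).

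The remaining 4 of the 12 largest falls encode matrix, adhesion and membrane proteins. Spon1, a matrix glycoprotein, read 10.33, 10.19, 8.96, 10.13 and 10.39 in controls 1 to 5 and 6.05, 6.55, 6.74, 5.73 and 7.27 in mutants 1 to 5. Its mutants were spread over more than 1 log2 unit and none reached control 3, the lowest control. Spon1 fell by 3.53 (SE 0.34, adjusted p = 5.79e-07, -3.79 without control 3). Slc7a10, a transporter of small neutral amino acids, read 5.93, 6.40, 4.43, 6.37 and 6.53 in controls 1 to 5 and 1.90, 1.84, 2.33, 2.53 and 2.41 in mutants 1 to 5. The mutants were dim and control 3 stood between them and the other controls. Slc7a10 fell by 3.73 (SE 0.27, adjusted p = 2.66e-08, -4.10 without control 3). Lims2, an adaptor of focal adhesions, read 6.67, 6.48, 5.18, 6.44 and 6.49 in controls 1 to 5 and 2.34, 2.36, 3.03, 2.38 and 2.47 in mutants 1 to 5 and fell by 3.74 (SE 0.20, adjusted p = 5.04e-10, -4.005 without control 3). Ms4a4d, a membrane-spanning protein, read 7.35, 7.31, 5.68, 7.69 and 7.35 in controls 1 to 5 and 3.39, 3.48, 3.11, 3.51 and 4.36 in mutants 1 to 5 and fell by 3.51 (SE 0.28, adjusted p = 6.28e-08, -3.86 without control 3). In Lims2 and Ms4a4d, as in Slc7a10, control 3 was the lowest control and the mutant means were dim.

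The largest rise was in Rspo2, a secreted activator of Wnt signalling made by lung mesenchyme. It read 3.84, 3.92, 5.20, 3.72 and 4.19 in controls 1 to 5 and 7.91, 7.87, 7.26, 7.21 and 7.49 in mutants 1 to 5. Controls other than control 3 were near the dim threshold, control 3 was higher, and all mutants were higher still. Rspo2 rose by 3.37 (SE 0.27, adjusted p = 6.28e-08, 3.63 without control 3). Other secreted and matrix proteins rose with it. Ccl11, a chemokine for eosinophils, read 6.63, 6.82, 9.03, 7.26 and 6.56 in controls 1 to 5 and 9.60, 9.39, 9.16, 9.36 and 9.52 in mutants 1 to 5, so control 3 was close to the lowest mutant. Ccl11 rose by 2.15 (SE 0.31, adjusted p = 4.95e-05, 2.59 without control 3). Vcan, the large proteoglycan versican of immature tissue, read 7.66, 8.10, 9.73, 7.95 and 8.05 in controls 1 to 5 and 10.64, 10.42, 10.03, 10.69 and 10.18 in mutants 1 to 5. Control 3 again lay just under the lowest mutant. Vcan rose by 2.09 (SE 0.27, adjusted p = 1.47e-05, 2.45 without control 3). Mdk, the heparin-binding growth factor midkine, read 10.52, 10.66, 11.84, 10.66 and 10.53 in controls 1 to 5 and 13.05, 13.07, 12.39, 12.98 and 12.27 in mutants 1 to 5. Mdk rose by 1.91 (SE 0.23, adjusted p = 6.32e-06, 2.15 without control 3), with control 3 the highest control.

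Cell surface proteins were a further group among the 12 largest rises without overlap between the groups. St8sia2, which builds polysialic acid on adhesion molecules, read 4.04, 4.44, 4.75, 4.13 and 4.06 in controls 1 to 5 and 6.83, 6.49, 7.20, 6.64 and 6.53 in mutants 1 to 5 and rose by 2.45 (SE 0.20, adjusted p = 9.37e-08, 2.57 without control 3). The adhesion molecule Cntn1 read 2.49, 2.63, 2.62, 2.67 and 2.25 in controls 1 to 5 and 4.81, 5.26, 4.76, 4.61 and 4.82 in mutants 1 to 5. All controls were dim, control 3 included, and all mutants were above the dim threshold. Cntn1 rose by 2.32 (SE 0.19, adjusted p = 9.78e-08, 2.34 without control 3). The immunoglobulin family member Igdcc4 read 6.997, 6.98, 8.37, 7.50 and 6.86 in controls 1 to 5 and 9.38, 9.58, 9.26, 9.57 and 9.36 in mutants 1 to 5 and rose by 2.09 (SE 0.20, adjusted p = 4.92e-07, 2.34 without control 3). H2-Eb1, a chain of the class II histocompatibility complex, read 4.64, 5.27, 4.84, 5.48 and 4.52 in controls 1 to 5 and 6.06, 6.85, 7.51, 7.25 and 7.75 in mutants 1 to 5. Here control 3 was inside the control range. H2-Eb1 rose by 2.14 (SE 0.28, adjusted p = 1.81e-05, 2.11 without control 3).

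The other 4 rises were in Lrr1, Tpd52l1, Prss35 and Chaf1b. Chaf1b, a subunit of the chromatin assembly factor that loads histones behind the replication fork, read 4.68, 4.62, 5.74, 4.83 and 4.98 in controls 1 to 5 and 6.64, 7.29, 6.21, 7.07 and 5.95 in mutants 1 to 5 and rose by 1.66 (SE 0.24, adjusted p = 5.33e-05, 1.85 without control 3). Lrr1, a leucine-rich repeat protein, read 4.28, 4.24, 5.50, 4.004 and 3.80 in controls 1 to 5 and 6.20, 6.83, 5.78, 6.97 and 5.78 in mutants 1 to 5 and rose by 1.95 (SE 0.27, adjusted p = 3.36e-05, 2.23 without control 3). In both genes control 3 was the highest control and the nearest to the mutants. Tpd52l1, of the tumour protein D52 family, read 5.19, 5.34, 6.41, 5.23 and 5.29 in controls 1 to 5 and 7.34, 7.58, 6.62, 7.59 and 6.92 in mutants 1 to 5 and rose by 1.72 (SE 0.22, adjusted p = 1.53e-05, 1.95 without control 3). Prss35, of the serine protease family, read 6.69, 7.12, 7.45, 7.06 and 6.75 in controls 1 to 5 and 8.96, 9.11, 8.31, 8.60 and 8.50 in mutants 1 to 5 and rose by 1.68 (SE 0.20, adjusted p = 8.41e-06, 1.79 without control 3). Control 3 was the highest control in these 2 genes as well.

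**Figure D2:**
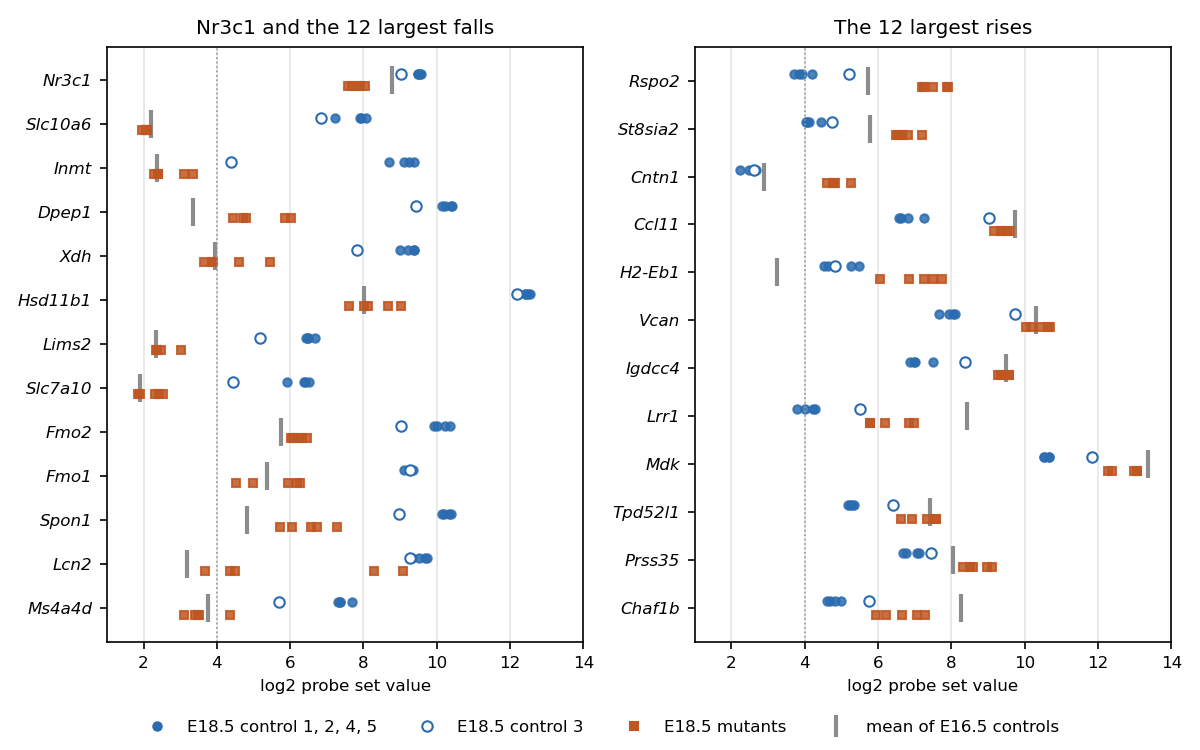
Log2 probe set values in each E18.5 array for Nr3c1 and the 12 largest falls (left) and the 12 largest rises (right), with controls 1, 2, 4 and 5 as filled circles, control 3 as an open circle, mutants as squares and the mean of the 5 E16.5 controls as a grey bar. The dotted line marks the dim threshold of 4. Squares and circles do not overlap in any of these genes, by the rule that chose the 24, and control 3 is often the circle nearest to the squares.

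The E16.5 controls entered the filter and the estimate of the spread behind the calls, but not the differences that ranked these genes, and they show where the mutant levels lie relative to earlier development. In 9 of the 12 falls the difference between the E18.5 mutants and the E16.5 controls did not pass the same test, and in 3 the mutants were higher. Hsd11b1 was 8.02 ± 1.03 (SD, n = 5) in E16.5 controls, and the E18.5 mutants differed from that by 0.27 (SE 0.43, adjusted p = 0.618). Slc10a6 was 2.19 ± 0.20 at E16.5, dim as in the E18.5 mutants. Dpep1 was 3.34 ± 1.25, and its E18.5 mutants were higher by 1.83 (SE 0.44, adjusted p = 0.00196). Spon1 and Lcn2 were also above the E16.5 controls, by 1.64 (SE 0.34, adjusted p = 0.000599) and 2.80 (SE 0.73, adjusted p = 0.00359). Of the 12 rises, 5 were above the E16.5 controls, 3 were below and 4 did not pass the test. Rspo2 exceeded its E16.5 level of 5.74 ± 0.59 by 1.81 (SE 0.27, adjusted p = 2.48e-05), and Cntn1 exceeded its level of 2.90 ± 0.57 by 1.95 (SE 0.19, adjusted p = 4.21e-07). H2-Eb1, dim at E16.5, was higher by 3.84 (SE 0.28, adjusted p = 1.84e-08). Lrr1 and Chaf1b were below their E16.5 levels, with differences of -2.11 (SE 0.27, adjusted p = 4.71e-06) and -1.62 (SE 0.24, adjusted p = 2.20e-05). Over all genes, 4224 of 8068 (52.4%) differed between the E18.5 mutants and the E16.5 controls. A missed threshold does not show equal levels.

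The measured mutant effect was larger at E18.5 than at E16.5 in most of the named 24. The difference of the effects between stages was called in 678 of 8068 genes (8.4%), in 11 of the 12 falls and in all 12 rises. These 24 were chosen for their E18.5 difference, so their counts here are a description. Without control 3 it was called in 1445 genes. Because sex ran with genotype at E16.5, the test was repeated with sex as a covariate, an alternative chosen after seeing the data. It then called 403 genes, 320 of them among the 678 and in the same direction, and 9 of the 12 falls and 10 of the 12 rises. Fmo2, Fmo1, Tpd52l1 and Prss35 no longer passed (adjusted p = 0.106, 0.156, 0.0693 and 0.11). In Slc10a6 the effect was -0.13 at E16.5, so that the stages differed by -5.40 (SE 0.24, adjusted p = 4.56e-11). The E16.5 controls had dim means in Slc10a6, Inmt, Dpep1, Xdh, Lims2, Slc7a10, Lcn2 and Ms4a4d. A fall could show little or not at all in these genes at E16.5, so the test cannot decide whether their effect grew. In Rspo2, called at both stages, the E16.5 effect was 1.39 and the stages differed by 1.99 (SE 0.38, adjusted p = 0.00416). Hsd11b1 was the exception, with an E16.5 effect of -3.52 and a difference between stages of -0.61 (SE 0.61, adjusted p = 0.58). Nr3c1 had an effect of -1.72 at E16.5, and its difference between stages was 0.10 (SE 0.24, adjusted p = 0.85). The cell cycle inhibitor Cdkn1a, described with its list, differed between stages by -1.57 (SE 0.17, adjusted p = 1.36e-05). Leaving out control 1, 2 or 5 or mutant 2 or 4 lowered the count to between 393 and 424.

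Gene lists were read by counting called members against 18.6% higher and 15.9% lower over all genes (22.9% and 18.6% without control 3). For members that missed the threshold in some fits, fits on fewer arrays are the 12 that left out 1 E18.5 array in turn or used the E18.5 arrays alone, with and without control 3. Such misses are given mostly for members named in the text. The counts also hold unnamed members that missed the threshold in some of these fits. Because whole lobes were measured, fewer cells of a type and less RNA per cell cannot be told apart. Of genes known to be induced by glucocorticoids, 2 of 31 tested members were called higher and 21 lower, against 2 and 23 without control 3 (median -0.66, -0.85 without control 3). The mean level of the list was 9.79 to 9.94 in controls 1, 2, 4 and 5, 9.37 in control 3 and 8.22 to 8.83 in the mutants, so that control 3 was lower than the other controls and above every mutant. Zbtb16, a zinc finger transcription factor, read 6.23, 6.25, 3.31, 5.93 and 6.12 in controls 1 to 5 and 2.27, 2.33, 2.42, 2.10 and 2.36 in mutants 1 to 5, and fell by 3.27 (SE 0.44, adjusted p = 2.96e-05, -3.84 without control 3). Fkbp5, a chaperone that damps the receptor, read 9.52, 9.55, 8.46, 9.43 and 9.49 in controls 1 to 5 and 7.03, 6.57, 7.18, 7.08 and 6.91 in mutants 1 to 5 and fell by 2.34 (SE 0.18, adjusted p = 3.26e-08, -2.54 without control 3). Pdk4, which slows glucose oxidation, fell by 3.17 (SE 0.20, adjusted p = 4.37e-09, -3.37 without control 3). Tsc22d3, also called Gilz, an anti-inflammatory mediator, fell by 1.34 (SE 0.18, -1.55 without control 3). Klf9, a growth-restraining transcription factor, fell by 1.92 (SE 0.18, -2.05 without control 3), and the phosphatase Dusp1 fell by 1.02 (SE 0.12, -1.07 without control 3). Not every member moved this way. Sgk1, a kinase that activates sodium channels, was at 0.24 (95% interval -0.39 to 0.87), the metallothioneins Mt1 and Mt2 at -0.10 (95% interval -0.64 to 0.43) and 0.14 (95% interval -0.44 to 0.72), and Angptl4 rose by 0.55 (SE 0.17, 0.66 without control 3). Angptl4 missed the threshold in 1 of the 12 fits on fewer arrays (adjusted p up to 0.0548).

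Among 7 tested genes of steroid receptors and steroid metabolism, 1 was called higher and 4 lower, with the same counts without control 3. Besides Nr3c1 and Hsd11b1 these were Akr1c14, a ketosteroid reductase that fell by 1.92 (SE 0.52, adjusted p = 0.00795, -2.13 without control 3), and H6pd, which supplies the cofactor of the Hsd11b1 enzyme and fell by 0.61 (SE 0.12, -0.67 without control 3). The receptor cochaperone Fkbp4 rose by 0.39 (SE 0.09, 0.45 without control 3). Of the circadian clock genes, 2 of 13 tested members were called higher and 6 lower, against 2 and 9 without control 3 (median -0.37, -0.48 without control 3). The repressor Per1, which is also a direct hormone target, read 8.48, 8.63, 8.02, 8.17 and 8.50 in controls 1 to 5 and 6.28, 5.65, 6.43, 5.07 and 5.88 in mutants 1 to 5 and fell by 2.50 (SE 0.27, adjusted p = 1.91e-06, -2.58 without control 3). Per2 fell by 1.40 (SE 0.27, -1.63 without control 3) and the activator Npas2 fell by 0.84 (SE 0.24, -1.03 without control 3), while Nr1d2 rose by 0.69 (SE 0.10, 0.62 without control 3) and Dbp rose by 0.58 (SE 0.15, 0.53 without control 3). Npas2 did not pass with the 10 E18.5 arrays alone (adjusted p = 0.0521). Of the immediate-early transcription factors, 1 of 14 tested members was called higher and 9 lower, against 1 and 9 without control 3 (median -0.52, -0.59 without control 3). Fos fell by 1.86 (SE 0.36, adjusted p = 0.00074, -2.25 without control 3), Klf2 fell by 1.12 (SE 0.22, -0.96 without control 3) and Klf4 fell by 1.06 (SE 0.25, -1.18 without control 3), whereas Egr1 rose by 0.96 (SE 0.24, 1.16 without control 3).

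Cell division genes were higher as a group. Of the mitosis genes, 29 of 29 tested members were called higher and 0 lower, against 29 and 0 without control 3 (median 1.01, 1.29 without control 3). The list mean was 7.77 to 7.87 in controls 1, 2, 4 and 5, 9.11 in control 3 and 8.40 to 9.66 in the mutants, and 10.19 to 10.41 in the E16.5 controls. Control 3 therefore lay inside the mutant range, and mutants 3 and 5 lay between it and the other controls. The motor Kif23, needed to divide the cell body, read 7.37, 7.44, 9.28, 7.67 and 7.65 in controls 1 to 5 and 9.85, 9.78, 8.36, 9.53 and 8.35 in mutants 1 to 5. Mutants 3 and 5 and control 3 overlapped in it. Kif23 rose by 1.29 (SE 0.33, adjusted p = 0.00599, 1.64 without control 3). Hmmr, a spindle protein, rose by 1.39 (SE 0.37, adjusted p = 0.00778, 1.83 without control 3), and the kinetochore motor Cenpe rose by 1.33 (SE 0.27, adjusted p = 0.000978, 1.44 without control 3). With the 10 E18.5 arrays alone Hmmr did not pass (adjusted p = 0.0515). The same held for Aurkb, Birc5, Bub1b, Ccnb2, Cdk1, Kif4, Plk1, Ttk and Ube2c. Aurkb and Ube2c missed the threshold in 8 of the 12 fits on fewer arrays (adjusted p up to 0.113 and 0.0847). The proliferation marker Mki67 rose by 0.95 (SE 0.22, 1.15 without control 3) and topoisomerase Top2a rose by 1.01 (SE 0.24, 1.23 without control 3). Of the DNA replication genes, 28 of 29 tested members were called higher and 0 lower, against 28 and 0 without control 3 (median 0.88, 0.98 without control 3), with a list mean of 7.64 to 7.80 in controls 1, 2, 4 and 5, 8.43 in control 3 and 8.28 to 9.23 in the mutants. Mcm10, which helps to start replication, rose by 1.62 (SE 0.31, 1.83 without control 3), and the polymerase subunit Pola1 rose by 1.58 (SE 0.28, 1.79 without control 3). The one replication gene that was not called was E2f1, at 0.20 (95% interval -0.06 to 0.46). Among those called, Tk1 missed the threshold in 8 and Rrm2 in 3 of the 12 fits on fewer arrays (adjusted p up to 0.1 and 0.08).

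Genes of growth arrest moved both ways. Here 2 of 16 tested members were called higher and 6 lower, against 2 and 8 without control 3 (median -0.18, -0.20 without control 3). Cdkn1a, the inhibitor p21 of cyclin-dependent kinases, read 8.15, 8.13, 7.74, 7.97 and 7.80 in controls 1 to 5 and 6.42, 6.47, 7.04, 6.36 and 6.54 in mutants 1 to 5. The groups were clearly apart and control 3 was close to the other controls. Cdkn1a fell by 1.39 (SE 0.12, adjusted p = 1.57e-07, -1.45 without control 3). Cdkn2b, the inhibitor p15, fell by 1.90 (SE 0.41, adjusted p = 0.00177, -2.09 without control 3), and the stress-response gene Gadd45g fell by 0.93 (SE 0.24, -0.94 without control 3). Cdkn1c, the inhibitor p57, fell by 0.37 (SE 0.10, -0.27 without control 3). Cdkn2c, the inhibitor p18, rose by 0.68 (SE 0.20, 0.88 without control 3), but Cdkn2c missed the threshold in 1 of the 12 fits on fewer arrays (adjusted p up to 0.0646). Gas2, a cytoskeletal protein of arrested cells, rose by 0.91 (SE 0.18, 0.87 without control 3).

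**Figure D3:**
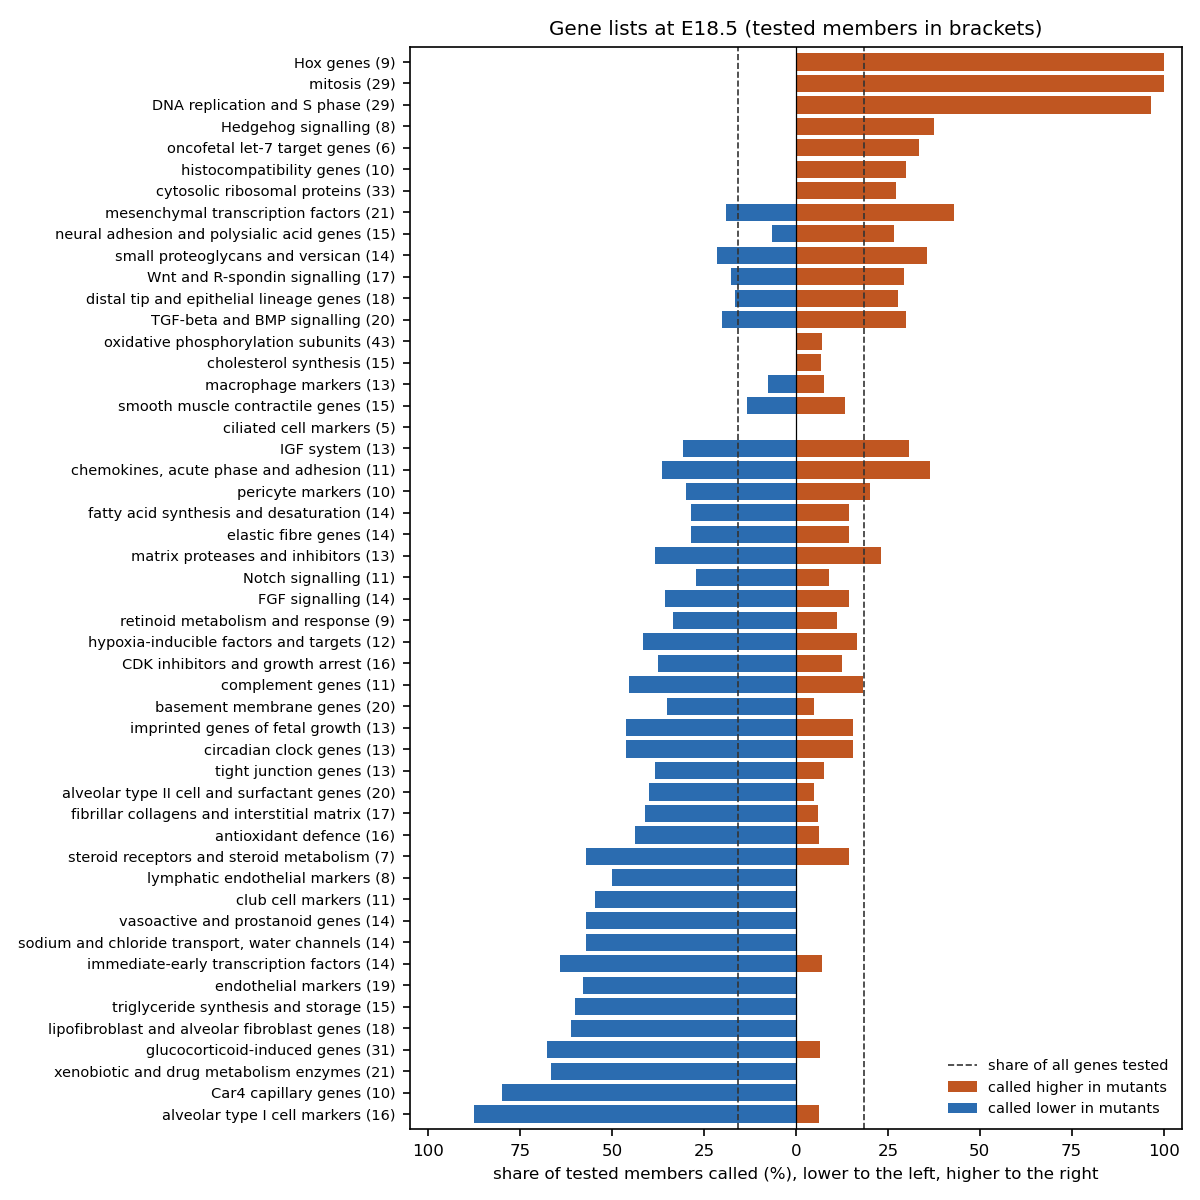
Share of the tested members of each gene list that were called higher (to the right) or lower (to the left) at E18.5, in percent, with the number of tested members in brackets. Dashed lines mark the shares over all genes, 18.6% and 15.9%. Lists are ordered by the share higher minus the share lower; those of tissues at the edge of the lobe or outside it and those with fewer than 5 tested members are not drawn. Of the lists drawn, Hox, mitosis and DNA replication stand at the top, and alveolar type I, Car4 capillary and drug metabolism at the bottom.

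Transcription factors that lay out the mesenchyme were more often higher. All 9 tested Hox genes, which encode positional identity, were called higher, 8 of them also without control 3 (median 0.51, 0.58 without control 3). The list mean was 6.42 to 6.62 in controls 1, 2, 4 and 5, 6.69 in control 3 and 7.02 to 7.31 in the mutants, and 7.32 to 7.55 in the E16.5 controls. Hoxb6 read 4.81, 5.20, 4.98, 5.01 and 4.95 in controls 1 to 5 and 6.28, 6.29, 5.88, 6.08 and 5.96 in mutants 1 to 5, with control 3 inside the control range, and rose by 1.11 (SE 0.13, adjusted p = 7.53e-06, 1.11 without control 3). Hoxb5 rose by 0.97 (SE 0.11, 1.03 without control 3) and Hoxa4 rose by 0.92 (SE 0.13, 0.94 without control 3). The smallest rise was in Hoxa5, at 0.20 (SE 0.07, 0.23 without control 3). Hoxa5 missed the threshold in 7 of the 12 fits on fewer arrays (adjusted p up to 0.0938). Of the other mesenchymal factors, 9 of 21 tested members were called higher and 4 lower, against 9 and 4 without control 3 (median 0.20, 0.35 without control 3). The homeobox gene Prrx1 read 7.10, 7.11, 7.37, 7.02 and 6.83 in controls 1 to 5 and 8.39, 8.25, 8.10, 8.40 and 8.41 in mutants 1 to 5 and rose by 1.22 (SE 0.13, adjusted p = 1.46e-06, 1.30 without control 3). Prrx2 rose by 1.38 (SE 0.27, 1.76 without control 3), with dim controls other than control 3, and Nr2f1 rose by 0.86 (SE 0.10, 0.86 without control 3). The mutant mean of Prrx2, at 3.98, was also just under the dim threshold. Tcf21, a marker of lung fibroblasts that become lipofibroblasts, fell by 0.75 (SE 0.09, -0.78 without control 3). Sox9, which serves both cartilage and distal epithelium, rose by 1.30 (SE 0.24, 1.41 without control 3). The lung mesenchyme factors Tbx4, Tbx5 and Foxf1 were at -0.22 (95% interval -0.44 to -0.01), 0.02 (95% interval -0.20 to 0.25) and -0.07 (95% interval -0.33 to 0.18).

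Genes of lipid-storing and alveolar fibroblasts were lower. In their list 0 of 18 tested members were called higher and 11 lower, against 0 and 14 without control 3 (median -0.57, -0.68 without control 3). The list mean was 10.86 to 10.96 in controls 1, 2, 4 and 5, 10.14 in control 3 and 9.66 to 9.89 in the mutants, so that control 3 was closer to the mutants than to the other controls. Besides Inmt and Slc7a10, G0s2, an inhibitor of the lipase that breaks down stored fat, read 10.92, 11.11, 10.96, 10.97 and 10.94 in controls 1 to 5 and 9.29, 9.38, 9.16, 8.80 and 9.18 in mutants 1 to 5. Control 3 was an ordinary control in it. G0s2 fell by 1.82 (SE 0.15, adjusted p = 9.37e-08, -1.82 without control 3). The fibroblast receptor Pdgfra fell by 0.52 (SE 0.12, -0.54 without control 3), and Col13a1, a membrane collagen of alveolar fibroblasts, fell by 0.61 (SE 0.12, -0.72 without control 3). Of the genes for triglyceride synthesis and storage, 0 of 15 tested members were called higher and 9 lower, against 0 and 9 without control 3 (median -0.66, -0.80 without control 3). Dgat2, which makes triglyceride, read 5.91, 5.83, 6.81, 5.76 and 5.66 in controls 1 to 5 and 4.26, 4.002, 4.25, 3.65 and 4.24 in mutants 1 to 5 and fell by 1.91 (SE 0.21, adjusted p = 2.76e-06, -1.71 without control 3). The phosphatidate phosphatase Lpin1 fell by 1.19 (SE 0.28, -1.35 without control 3), and the fatty acid transporter Cd36 fell by 1.12 (SE 0.37, -1.23 without control 3). Cd36 missed the threshold in 5 of the 12 fits on fewer arrays (adjusted p up to 0.0717). The lipid droplet coat protein Plin2 was at -0.12 (95% interval -0.28 to 0.04), and the adipogenic receptor Pparg at 0.26 (95% interval -0.09 to 0.62).

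Of the genes for fatty acid synthesis and desaturation, 2 of 14 tested members were called higher and 4 lower, against 2 and 5 without control 3 (median -0.14, -0.24 without control 3). The elongase Elovl1 fell by 0.58 (SE 0.11, adjusted p = 0.000618, -0.65 without control 3). The desaturase Scd1 fell by 1.30 (SE 0.42, -1.61 without control 3), and the desaturase Fads2 rose by 0.41 (SE 0.13, 0.35 without control 3), but neither call was stable. Scd1 did not pass without control 1, 2 or 5 or mutant 1, 2 or 4 (adjusted p = 0.0517 to 0.0745, difference -1.23 to -0.97), nor with the 10 E18.5 arrays alone (adjusted p = 0.0672), and Fads2 did not pass without mutant 4 (adjusted p = 0.058, difference 0.31), nor with the 10 E18.5 arrays alone (adjusted p = 0.0561) or with the 9 E18.5 arrays other than control 3 (adjusted p = 0.0844). Cholesterol synthesis stood at the other end, with 1 of 15 called, Dhcr7, which rose by 0.59 (SE 0.13, adjusted p = 0.0025, 0.66 without control 3) (median -0.03, 0.00 without control 3 for the list). Without control 3 the synthase Lss was called lower as well, at -0.62 (adjusted p = 0.0134).

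The epithelium was not the stated target of the Cre, and many of its markers were lower in the mutants. In the list of alveolar type I cells 1 of 16 tested members was called higher and 14 lower, against 1 and 14 without control 3 (median -0.86, -0.94 without control 3), and the mean level was 11.18 to 11.30 in controls 1, 2, 4 and 5, 10.77 in control 3 and 10.03 to 10.63 in the mutants. Ager, a receptor abundant on these cells, read 13.27, 13.33, 12.86, 13.27 and 13.42 in controls 1 to 5 and 12.24, 12.16, 12.71, 12.01 and 12.74 in mutants 1 to 5 and fell by 0.86 (SE 0.21, adjusted p = 0.00381, -0.95 without control 3). The homeobox gene Hopx fell by 0.86 (SE 0.25, adjusted p = 0.0123, -0.89 without control 3). The water channel Aqp5 read 9.18, 9.45, 7.98, 8.78 and 9.38 in controls 1 to 5 and 6.66, 6.81, 8.11, 5.86 and 7.88 in mutants 1 to 5, with 4 of 5 mutants below all controls, and fell by 1.89 (SE 0.33, adjusted p = 0.000284, -2.13 without control 3). Rtkn2 fell by 1.89 (SE 0.45, adjusted p = 0.0036, -2.36 without control 3), and the caveolin Cav1 fell by 0.41 (SE 0.08, -0.43 without control 3). Igfbp2 was the member that rose, at 1.69 (SE 0.32, 2.03 without control 3). Of the genes for ion transport and water channels, which clear fluid from the airspace at birth, 0 of 14 tested members were called higher and 8 lower, against 0 and 8 without control 3 (median -0.83, -0.87 without control 3). The epithelial sodium channel subunits Scnn1a, Scnn1b and Scnn1g were at -2.85 (SE 0.41, -3.18 without control 3), -1.33 (SE 0.25, -1.60 without control 3) and -1.58 (SE 0.28, -1.84 without control 3), each of them called. The chloride channel Cftr was at -0.23 (95% interval -0.56 to 0.09).

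Type II cell genes divided. Here 1 of 20 tested members was called higher and 8 lower, against 1 and 9 without control 3 (median -0.50, -0.59 without control 3), and the mean level was 12.19 to 12.32 in controls 1, 2, 4 and 5, 11.48 in control 3 and 10.57 to 12.02 in the mutants, so that control 3 lay inside the mutant range. Surfactant protein C (Sftpc) read 15.15, 15.18, 15.21, 15.22 and 15.20 in controls 1 to 5 and 15.21, 15.22, 15.13, 15.10 and 15.12 in mutants 1 to 5, with a difference of -0.04 (95% interval -0.18 to 0.10). Values of Sftpc this bright may lie near the top of the scale, where a difference could be missed, and this was not tested. Surfactant protein B (Sftpb) was at -0.46 (95% interval -1.10 to 0.18) and the lipid transporter Abca3 at -0.45 (95% interval -0.98 to 0.08). Surfactant protein D (Sftpd) was at -1.23 (SE 0.47, -1.39 without control 3), called without control 3 only (adjusted p = 0.0349). The calcium-binding protein S100g fell by 2.62 (SE 0.73, adjusted p = 0.00949, -3.05 without control 3), the lysozyme Lyz2 fell by 1.24 (SE 0.32, -1.48 without control 3) and Pcyt1a, which makes the choline lipids of surfactant, fell by 0.48 (SE 0.11, -0.51 without control 3). S100g did not pass with the 10 E18.5 arrays alone (adjusted p = 0.0641). The paraoxonase Pon1 fell by 2.94 (SE 0.92, -3.78 without control 3), but Pon1 did not pass without control 1 or 5 or mutant 4 (adjusted p = 0.0529 to 0.0567, difference -2.65 to -2.01), nor with the 10 E18.5 arrays alone (adjusted p = 0.0945). Etv5, a transcription factor downstream of FGF signals, rose by 0.59 (SE 0.14, 0.55 without control 3).

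Of the club cell markers, 0 of 11 tested members were called higher and 6 lower, against 0 and 6 without control 3 (median -0.61, -0.73 without control 3). The secretoglobin Scgb3a1 fell by 2.66 (SE 0.71, adjusted p = 0.00776, -3.18 without control 3) and the glutathione transferase Gsta3 fell by 1.11 (SE 0.31, -1.42 without control 3). Scgb3a1 did not pass with the 10 E18.5 arrays alone (adjusted p = 0.0568), and Gsta3 did not pass with the 10 E18.5 arrays alone (adjusted p = 0.0591). Cyp2f2 and Upk3a, also called lower, missed the threshold in 7 and 8 of the 12 fits on fewer arrays (adjusted p up to 0.115 and 0.0976). Upk3a was not called without control 3. Chad fell by 1.07 (SE 0.38, -1.41 without control 3), but Chad did not pass without control 1, 2, 4 or 5 or mutant 1, 2 or 4 (adjusted p = 0.0512 to 0.111, difference -1.12 to -0.85), nor with the 10 E18.5 arrays alone (adjusted p = 0.137), with a replicate block (adjusted p = 0.0936) or without the filter on dim genes (adjusted p = 0.067). The defining club cell gene Scgb1a1 was at -0.99 (SE 0.45, -1.25 without control 3) and was called without control 3 only (adjusted p = 0.0358). Of 5 tested ciliated cell markers 0 were called with or without control 3. The cilia regulator Foxj1 was at -0.21 (95% interval -0.75 to 0.32) and Tekt1, a protein of the ciliary axoneme, at 0.21 (95% interval -0.14 to 0.56). Of the genes of the distal tip and epithelial lineage, 5 of 18 tested members were called higher and 3 lower, against 5 and 3 without control 3 (median 0.04, 0.02 without control 3). The growth regulator Mycn rose by 1.30 (SE 0.20, adjusted p = 0.000103, 1.48 without control 3), Sox9 and Etv5 rose as given with their other lists, and the adhesion molecule Epcam rose by 0.85 (SE 0.16, 0.99 without control 3). The keratin Krt19 fell by 1.19 (SE 0.17, -1.10 without control 3). Of the tight junction genes, 1 of 13 tested members was called higher and 5 lower, against 1 and 6 without control 3. Cldn1 read 6.78 ± 0.15 in controls and 4.52 ± 0.31 in mutants (SD, n = 5) and fell by 2.26 (SE 0.20, adjusted p = 2.16e-07, -2.28 without control 3). Cldn6, a claudin of embryonic epithelium, read 3.47, 3.47, 6.56, 3.48 and 3.33 in controls 1 to 5 and 7.76, 7.64, 6.12, 8.21 and 6.45 in mutants 1 to 5. Control 3 and 2 mutants overlapped in it, and it rose by 3.18 (SE 0.50, adjusted p = 0.000116, 3.80 without control 3). Cldn18, the main claudin of alveolar epithelium, was at -0.02 (95% interval -0.28 to 0.25).

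Endothelial markers were also lower. Of these, 0 of 19 tested members were called higher and 11 lower, against 0 and 14 without control 3 (median -0.34, -0.44 without control 3), and the mean level was 10.03 to 10.21 in controls 1, 2, 4 and 5, 9.92 in control 3 and 9.61 to 9.79 in the mutants. The junction molecule Pecam1 fell by 0.60 (SE 0.09, adjusted p = 7.34e-05, -0.64 without control 3), the sialoprotein Emcn fell by 0.74 (SE 0.10, adjusted p = 2.77e-05, -0.73 without control 3) and the adhesion molecule Icam2 fell by 0.73 (SE 0.10, adjusted p = 2.80e-05, -0.80 without control 3). The receptor tyrosine kinase Tek was at 0.04 (95% interval -0.10 to 0.18). In the list of capillary cells that express Car4 and lie against type I cells, 0 of 10 tested members were called higher and 8 lower, against 0 and 9 without control 3 (median -0.52, -0.70 without control 3). Its mean level was 10.14 to 10.31 in controls 1, 2, 4 and 5, 9.55 in control 3 and 8.79 to 9.37 in the mutants. The carbonic anhydrase Car4 read 8.87, 9.20, 5.38, 8.42 and 9.17 in controls 1 to 5 and 3.31, 2.84, 6.44, 2.83 and 6.35 in mutants 1 to 5. Control 3 lay below mutants 3 and 5, and the other 3 mutants were below all controls. Car4 fell by 3.86 (SE 0.72, adjusted p = 0.000569, -4.56 without control 3). Fibin fell by 1.27 (SE 0.11, -1.26 without control 3), and the cytochrome Cyp4b1 fell by 1.73 (SE 0.26, -2.04 without control 3). Of the lymphatic markers, 0 of 8 tested members were called higher and 4 lower, against 0 and 4 without control 3 (median -0.53, -0.61 without control 3). The hyaluronan receptor Lyve1 fell by 1.12 (SE 0.14, adjusted p = 1.49e-05, -1.24 without control 3) and Pdpn fell by 0.72 (SE 0.10, -0.80 without control 3). Pdpn is also on the type I cell list. Prox1, another lymphatic marker, was dim on every array with a highest value of 2.13 and was not tested. Nrp2 fell by 0.53 (SE 0.19, -0.62 without control 3), but Nrp2 did not pass without control 1, 2 or 5 or mutant 1, 2, 4 or 5 (adjusted p = 0.0532 to 0.118, difference -0.56 to -0.41), nor without the filter on dim genes (adjusted p = 0.062) or with sex as a covariate (adjusted p = 0.0557).

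Of the vasoactive and prostanoid genes, 0 of 14 tested members were called higher and 8 lower, against 1 and 7 without control 3 (median -0.80, -0.84 without control 3). Adm, the vessel-dilating peptide adrenomedullin, read 4.73, 5.07, 4.50, 5.29 and 6.12 in controls 1 to 5 and 2.74, 3.10, 2.58, 2.65 and 2.47 in mutants 1 to 5. All mutants were dim and all controls were above the dim threshold. Adm fell by 2.43 (SE 0.20, adjusted p = 8.50e-08, -2.59 without control 3). Npr3, the clearance receptor for natriuretic peptides, read 9.74, 9.86, 8.87, 9.39 and 9.59 in controls 1 to 5 and 7.74, 7.64, 7.72, 7.24 and 7.74 in mutants 1 to 5 and fell by 1.88 (SE 0.15, adjusted p = 6.28e-08, -2.03 without control 3). Ptgis, which makes prostacyclin, fell by 1.82 (SE 0.14, adjusted p = 2.83e-08, -1.80 without control 3), and the angiotensin-converting enzyme Ace fell by 1.45 (SE 0.21, -1.71 without control 3). The endothelial nitric oxide synthase Nos3 was at -0.35 (95% interval -0.66 to -0.05).

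**Figure D4:**
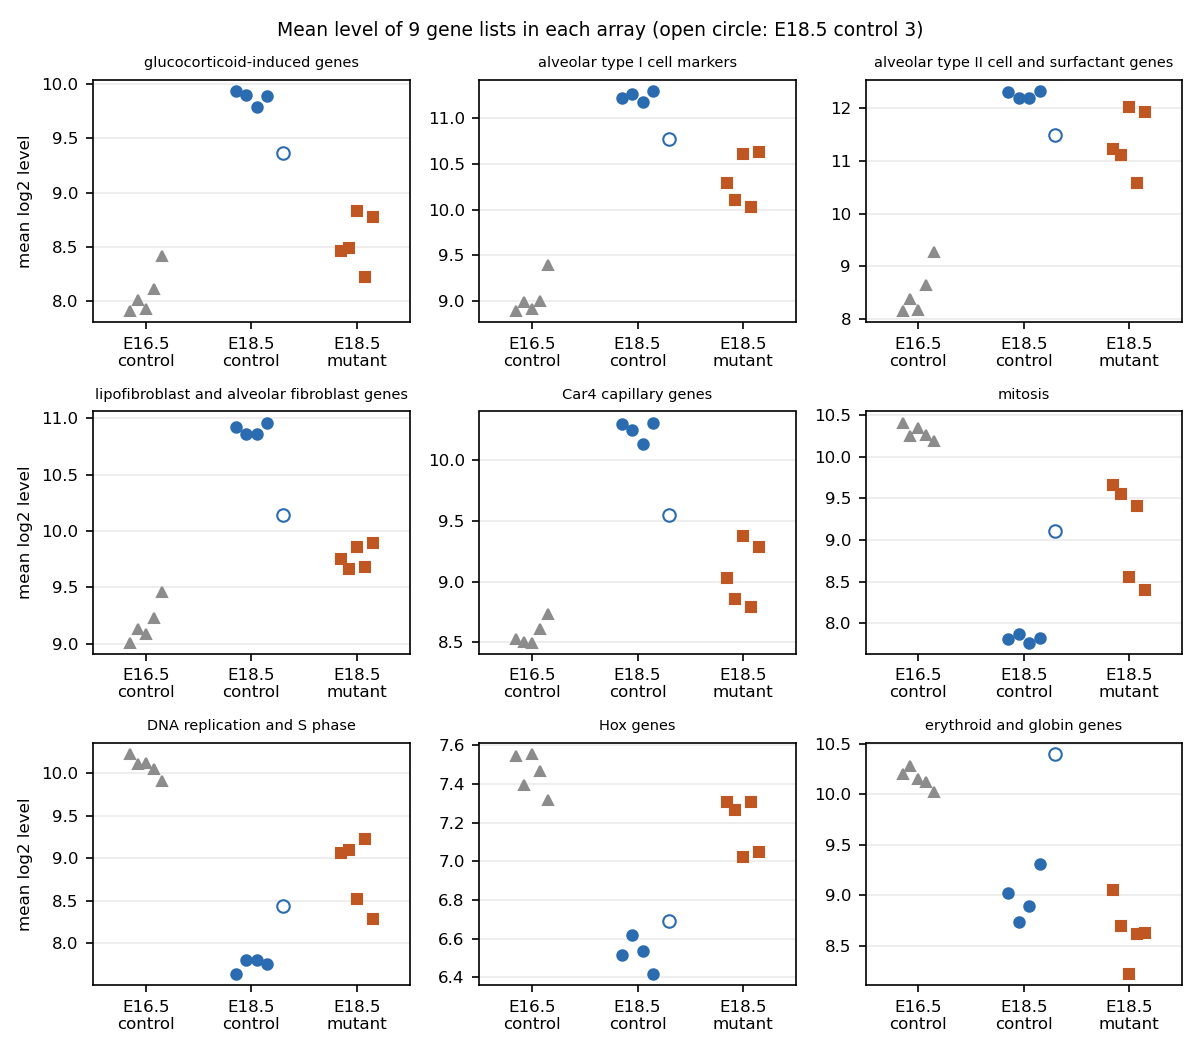
Mean log2 level of 9 gene lists in each array, for E16.5 controls (triangles), E18.5 controls (circles, control 3 open) and E18.5 mutants (squares), with a separate vertical scale in each panel. In the first 8 panels control 3 lies between the other controls and the mutants or inside the mutant range, nearest to the other controls for the Hox genes, and in the erythroid panel it lies at 10.40, above all other E18.5 arrays.

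Mural and smooth muscle genes showed no common direction. Of the smooth muscle contractile genes, 2 of 15 tested members were called higher and 2 lower, against 2 and 2 without control 3 (median -0.13, 0.01 without control 3). The smooth muscle actin Acta2 was at 0.25 (95% interval -0.04 to 0.54), transgelin (Tagln) at -0.05 (95% interval -0.43 to 0.33) and the myosin Myh11 at 0.04 (95% interval -0.29 to 0.38). The phosphatase inhibitor Ppp1r14a fell by 0.71 (SE 0.07, adjusted p = 1.13e-06, -0.71 without control 3), and the coactivator Myocd rose by 0.87 (SE 0.23, 0.84 without control 3). Pdlim3 rose by 0.60 (SE 0.20, 0.83 without control 3), but Pdlim3 did not pass without control 1, 2 or 5 or mutant 1 or 2 (adjusted p = 0.0651 to 0.0927, difference 0.47 to 0.56), nor with the 10 E18.5 arrays alone (adjusted p = 0.104) or with a replicate block (adjusted p = 0.0586). Of the pericyte markers, 2 of 10 tested members were called higher and 3 lower, against 3 and 4 without control 3 (median -0.11, -0.20 without control 3). The G protein regulator Rgs5 rose by 0.76 (SE 0.19, adjusted p = 0.00411, 0.94 without control 3), and the receptor Pdgfrb was at -0.06 (95% interval -0.35 to 0.23). Cspg4 and Abcc9 passed with all arrays, at -0.76 (SE 0.28, -0.81 without control 3) and 0.83 (SE 0.29, 1.06 without control 3). Yet Cspg4 did not pass without control 1, 2 or 5 or mutant 1, 2 or 3 (adjusted p = 0.0798 to 0.0997, difference -0.72 to -0.67), nor without the filter on dim genes (adjusted p = 0.069) or with sex as a covariate (adjusted p = 0.0593), and Abcc9 did not pass without control 1, 2 or 5 or mutant 1, 4 or 5 (adjusted p = 0.0578 to 0.1, difference 0.60 to 0.82), nor with the 10 E18.5 arrays alone (adjusted p = 0.0695) or without the filter on dim genes (adjusted p = 0.0548).

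Matrix genes did not move as one. Of the fibrillar collagens and interstitial matrix genes, 1 of 17 tested members was called higher and 7 lower, against 2 and 7 without control 3 (median -0.10, 0.02 without control 3). The fibrillar collagens Col1a1, Col1a2 and Col3a1 were at -0.10 (95% interval -0.56 to 0.36), -0.02 (95% interval -0.26 to 0.22) and 0.02 (95% interval -0.16 to 0.19). Col14a1, which organizes collagen fibrils, fell by 1.22 (SE 0.12, adjusted p = 6.17e-07, -1.17 without control 3), and fibronectin (Fn1) fell by 1.21 (SE 0.20, -1.39 without control 3). Tnc, the matrix protein tenascin C, read 8.65, 8.93, 9.12, 8.62 and 8.72 in controls 1 to 5 and 9.89, 9.97, 9.81, 10.24 and 10.27 in mutants 1 to 5, with control 3 the highest control and below every mutant, and rose by 1.23 (SE 0.12, adjusted p = 9.16e-07, 1.30 without control 3). Of the proteoglycans, 5 of 14 tested members were called higher and 3 lower, against 5 and 3 without control 3 (median 0.29, 0.59 without control 3). Besides Vcan, fibromodulin (Fmod) rose by 1.67 (SE 0.25, adjusted p = 8.68e-05, 1.91 without control 3) and the glypican Gpc6 rose by 1.16 (SE 0.25, 1.38 without control 3), while osteoglycin (Ogn) fell by 0.96 (SE 0.09, -0.97 without control 3). Both group means of Gpc6 were dim, at 2.79 in controls and 3.95 in mutants, which limits its value. Decorin (Dcn) was at -0.18 (95% interval -1.07 to 0.70).

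Of the elastic fibre genes, 2 of 14 tested members were called higher and 4 lower, against 2 and 5 without control 3 (median -0.24, -0.04 without control 3). Elastin (Eln), which lines the rims of future alveoli, read 13.24, 13.10, 12.64, 13.07 and 13.15 in controls 1 to 5 and 11.51, 11.76, 11.76, 11.56 and 11.93 in mutants 1 to 5 and fell by 1.33 (SE 0.13, adjusted p = 5.63e-07, -1.44 without control 3). The crosslinking enzyme Lox fell by 0.87 (SE 0.11, -0.81 without control 3) and the scaffold Fbln5 fell by 0.77 (SE 0.13, -0.88 without control 3). The fetal fibrillin Fbn2 rose by 1.64 (SE 0.24, adjusted p = 6.59e-05, 1.85 without control 3), and Fbln1 rose by 1.02 (SE 0.24, 1.31 without control 3). Of the basement membrane genes, 1 of 20 tested members was called higher and 7 lower, against 2 and 7 without control 3 (median -0.21, -0.24 without control 3). Col4a3, a collagen of the alveolar basement membrane, read 7.76, 7.81, 5.75, 6.96 and 7.84 in controls 1 to 5 and 4.64, 2.64, 5.41, 3.81 and 5.07 in mutants 1 to 5 and fell by 2.91 (SE 0.43, adjusted p = 6.56e-05, -3.28 without control 3), with its partner Col4a4 at -1.21 (SE 0.25, -1.51 without control 3). Col18a1 rose by 1.28 (SE 0.28, 1.58 without control 3). Of the matrix proteases and inhibitors, 3 of 13 tested members were called higher and 5 lower, against 4 and 5 without control 3 (median 0.00, 0.04 without control 3). The inhibitor Timp3 fell by 1.29 (SE 0.22, adjusted p = 0.000244, -1.45 without control 3) and the protease Adamts15 fell by 1.31 (SE 0.22, -1.59 without control 3), while the protease Adamts5 rose by 1.22 (SE 0.25, 1.52 without control 3).

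Signalling lists were mixed, and several ligands and inhibitors changed in opposite directions. In Wnt and R-spondin signalling, 5 of 17 tested members were called higher and 3 lower, against 5 and 3 without control 3 (median 0.16, 0.17 without control 3). Besides Rspo2, the ligands Wnt11 rose by 0.94 (SE 0.16, 1.15 without control 3) and Wnt7b rose by 0.48 (SE 0.16, 0.54 without control 3), and the secreted inhibitor Wif1 rose by 1.02 (SE 0.19, adjusted p = 0.000607, 0.94 without control 3). Wnt7b missed the threshold in 4 of the 12 fits on fewer arrays (adjusted p up to 0.081). The feedback inhibitor Nkd1 fell by 1.03 (SE 0.21, adjusted p = 0.00107, -1.20 without control 3), and the widely used target gene Axin2 was at 0.24 (95% interval -0.06 to 0.54). Among FGF genes, 2 of 14 tested members were called higher and 5 lower, against 2 and 6 without control 3 (median -0.06, -0.11 without control 3). The mesenchymal ligand Fgf7 fell by 0.66 (SE 0.17, adjusted p = 0.0067, -0.64 without control 3), the epithelial and mesothelial ligand Fgf9 rose by 0.47 (SE 0.15, 0.58 without control 3) and the receptor Fgfr4 fell by 0.93 (SE 0.18, adjusted p = 0.000768, -1.12 without control 3). Fgf9 missed the threshold in 1 of the 12 fits on fewer arrays (adjusted p up to 0.0758). Fgf10 was dim and not tested. Among TGF-beta and BMP genes, 6 of 20 tested members were called higher and 4 lower, against 7 and 4 without control 3 (median 0.12, 0.07 without control 3). The ligand Bmp6 read 5.43, 5.70, 4.93, 5.58 and 5.52 in controls 1 to 5 and 2.71, 2.32, 3.07, 2.62 and 3.20 in mutants 1 to 5, without overlap, and fell by 2.65 (SE 0.15, adjusted p = 7.30e-10, -2.77 without control 3). Tgfb2 rose by 0.93 (SE 0.15, adjusted p = 0.000198, 1.05 without control 3) and Tgfb3 rose by 0.90 (SE 0.15, 1.05 without control 3). Bmp2 fell by 0.99 (SE 0.33, -1.31 without control 3), but Bmp2 did not pass without control 1, 2 or 5 or mutant 1, 2 or 4 (adjusted p = 0.062 to 0.0719, difference -0.91 to -0.85), nor with the 10 E18.5 arrays alone (adjusted p = 0.0843) or with a replicate block (adjusted p = 0.0769).

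Binding proteins for insulin-like growth factors changed in both directions. In this system 4 of 13 tested members were called higher and 4 lower, against 5 and 4 without control 3 (median 0.15, 0.22 without control 3). Igfbp3 read 7.95, 7.79, 7.40, 7.85 and 7.48 in controls 1 to 5 and 5.53, 5.68, 6.33, 4.80 and 6.27 in mutants 1 to 5 and fell by 1.97 (SE 0.27, adjusted p = 2.74e-05, -2.04 without control 3). Igfbp6 fell by 1.92 (SE 0.33, adjusted p = 0.000292, -2.09 without control 3) and Igfbp2 rose by 1.69 (SE 0.32, adjusted p = 0.000602, 2.03 without control 3). The ligand Igf1 rose by 0.36 (SE 0.10, 0.43 without control 3). In Hedgehog signalling, 3 of 8 tested members were called higher and 0 lower, against 3 and 1 without control 3 (median 0.20, 0.18 without control 3). The target and effector Gli1 rose by 1.26 (SE 0.30, adjusted p = 0.00338, 1.48 without control 3), the transducer Smo rose by 0.63 (SE 0.10, 0.72 without control 3) and Gli2 rose by 0.52 (SE 0.13, 0.57 without control 3). The receptor Ptch1, also a target, was at 0.20 (95% interval 0.00 to 0.39). The call of Gli2 rests on its brightest probe set, since it did not pass with the probe set of largest SD (0.35, adjusted p = 0.1). In Notch signalling, 1 of 11 tested members was called higher and 3 lower, against 1 and 3 without control 3 (median -0.14, -0.16 without control 3). The effector Hey1 fell by 1.31 (SE 0.19, adjusted p = 7.16e-05, -1.46 without control 3), the ligand Jag2 fell by 0.72 (SE 0.10, -0.76 without control 3) and the effector Heyl rose by 0.96 (SE 0.14, adjusted p = 5.26e-05, 1.09 without control 3).

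Of the genes of retinoid metabolism and response, 1 of 9 tested members was called higher and 3 lower, against 1 and 2 without control 3 (median 0.06, 0.07 without control 3). Aldh1a1, which makes retinoic acid, fell by 0.60 (SE 0.14, adjusted p = 0.00242, -0.73 without control 3). Rdh10, the member called higher, missed the threshold in 10 of the 12 fits on fewer arrays (adjusted p up to 0.12). Rarg, called lower, missed it in 7 (adjusted p up to 0.115). Neither was called without control 3, so the member called higher in that fit was another one. Dhrs3, which reduces retinal, fell by 0.64 (SE 0.22, -0.71 without control 3), but Dhrs3 did not pass without control 1, 2, 4 or 5 or mutant 1, 2 or 4 (adjusted p = 0.0507 to 0.0917, difference -0.65 to -0.54), nor without the filter on dim genes (adjusted p = 0.0546). Of the hypoxia-inducible factors and targets, 2 of 12 tested members were called higher and 5 lower, against 2 and 5 without control 3 (median -0.45, -0.46 without control 3). Besides Adm, the inhibitory factor Hif3a, also on the glucocorticoid list, fell by 1.61 (SE 0.23, adjusted p = 5.04e-05, -1.64 without control 3), Ndrg1 fell by 1.30 (SE 0.34, -1.19 without control 3) and Vegfa, the vessel growth factor made by type I cells, fell by 0.98 (SE 0.20, adjusted p = 0.000978, -1.15 without control 3). The glycolytic genes Pgk1 and Ldha rose, at 0.65 (SE 0.13, 0.77 without control 3) and 0.40 (SE 0.12, 0.52 without control 3). Ldha missed the threshold in 3 of the 12 fits on fewer arrays (adjusted p up to 0.0591).

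Of the enzymes of xenobiotic metabolism, 0 of 21 tested members were called higher and 14 lower, against 1 and 15 without control 3 (median -1.09, -1.18 without control 3), and the mean level was 8.97 to 9.05 in controls 1, 2, 4 and 5, 8.14 in control 3 and 6.97 to 7.68 in the mutants. Besides Inmt, Xdh, Fmo2 and Fmo1, the sulfotransferase Sult1a1 fell by 2.52 (SE 0.39, adjusted p = 0.000101, -2.69 without control 3), the cytochrome Cyp2e1 fell by 1.31 (SE 0.27, -1.61 without control 3) and the glutathione transferase Gstm1 fell by 1.09 (SE 0.12, -1.12 without control 3). Of the antioxidant genes, 1 of 16 tested members was called higher and 7 lower, against 1 and 8 without control 3 (median -0.20, -0.13 without control 3). The secreted peroxidase Gpx3 read 11.55, 11.45, 10.31, 11.45 and 11.47 in controls 1 to 5 and 8.79, 8.67, 8.61, 8.27 and 8.73 in mutants 1 to 5, without overlap, and fell by 2.63 (SE 0.19, adjusted p = 2.20e-08, -2.87 without control 3). The ferroxidase Cp fell by 1.80 (SE 0.47, adjusted p = 0.00636, -2.19 without control 3), and Txnip fell as given with its promoter. The thioredoxin reductase Txnrd1 rose by 0.50 (SE 0.09, 0.47 without control 3).

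Immune genes showed no common direction. Of chemokines, acute phase and adhesion genes, 4 of 11 tested members were called higher and 4 lower, against 4 and 4 without control 3 (median -0.39, -0.44 without control 3). Besides Ccl11 and Lcn2, the serum amyloid Saa3 fell by 1.84 (SE 0.18, adjusted p = 6.24e-07, -1.85 without control 3), and the chemokine Ccl2 rose by 0.96 (SE 0.31, 1.01 without control 3). Ccl2 missed the threshold in 3 of the 12 fits on fewer arrays (adjusted p up to 0.0533). Of the complement genes, 2 of 11 tested members were called higher and 5 lower, against 2 and 6 without control 3 (median -0.50, -0.60 without control 3). C6 fell by 2.72 (SE 0.48, adjusted p = 0.000366, -3.29 without control 3) and C1ra fell by 1.23 (SE 0.23, -1.26 without control 3). Hc, complement component C5, fell by 1.42 (SE 0.50, -1.82 without control 3), but Hc did not pass without control 1, 2, 4 or 5 or mutant 1, 2 or 4 (adjusted p = 0.0628 to 0.112, difference -1.40 to -1.08), nor with the 10 E18.5 arrays alone (adjusted p = 0.0893), with a replicate block (adjusted p = 0.066), without the filter on dim genes (adjusted p = 0.0633) or with sex as a covariate (adjusted p = 0.0502). The inhibitor Cfi rose by 1.07 (SE 0.27, 1.15 without control 3). Of 10 tested histocompatibility genes 3 were called higher with and without control 3, all of them of class II, and 0 and 1 lower. H2-Aa read 6.95, 6.89, 6.16, 6.53 and 6.83 in controls 1 to 5 and 7.21, 8.12, 9.05, 8.24 and 8.91 in mutants 1 to 5 and rose by 1.64 (SE 0.25, adjusted p = 9.22e-05, 1.51 without control 3). H2-Ab1 rose by 1.60 (SE 0.27, adjusted p = 0.000248, 1.43 without control 3), and their partner Cd74, the invariant chain, was at 1.06 (95% interval 0.04 to 2.09) with 5 of 5 mutants above all controls. The class I genes H2-K1 and H2-D1 were at -0.33 (SE 0.17, -0.43 without control 3) and -0.32 (SE 0.16, -0.39 without control 3). Of the macrophage markers, cells that can carry class II molecules, 1 of 13 tested members was called higher and 1 lower, against 1 and 3 without control 3 (median -0.09, -0.06 without control 3). Their mean level was 8.37 to 8.55 in controls 1, 2, 4 and 5, 8.40 in control 3 and 7.89 to 8.78 in the mutants, and Cd68 was at -0.05 (95% interval -0.67 to 0.57). Besides Lyz2, which is shared with type II cells, Aif1 rose by 0.70 (SE 0.21, 0.68 without control 3), but Aif1 did not pass without control 2 (adjusted p = 0.052, difference 0.60), nor with the 10 E18.5 arrays alone (adjusted p = 0.0554) or with the 9 E18.5 arrays other than control 3 (adjusted p = 0.0694). The part of such cells in the class II difference was not tested.

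Of the imprinted genes of fetal growth, 2 of 13 tested members were called higher and 6 lower, against 3 and 6 without control 3 (median -0.18, -0.17 without control 3). The noncoding RNA Meg3 fell by 0.95 (SE 0.26, adjusted p = 0.00919, -1.09 without control 3), the zinc finger gene Peg3 fell by 0.56 (SE 0.12, -0.60 without control 3), and the amino acid transporter Slc38a4 rose by 0.62 (SE 0.11, 0.65 without control 3). With the probe set of largest SD, Slc38a4 was at 0.70 and did not pass (adjusted p = 0.0554). The growth factor Igf2 was at 0.24 (SE 0.21, 0.48 without control 3), called without control 3 only. Of 6 tested oncofetal targets of the let-7 microRNA, 2 were called higher with and without control 3, Igdcc4 and Mycn, and 0 lower. Of the neural adhesion genes, 4 of 15 tested members were called higher and 1 lower, against 4 and 1 without control 3 (median 0.09, 0.07 without control 3). Besides St8sia2 and Cntn1, the adhesion molecule Nrcam read 7.25, 7.72, 7.24, 7.09 and 7.58 in controls 1 to 5 and 8.67, 8.87, 8.71, 9.07 and 8.61 in mutants 1 to 5 and rose by 1.41 (SE 0.15, adjusted p = 1.31e-06, 1.37 without control 3), and the ephrin receptor Epha7 rose by 1.14 (SE 0.20, 1.02 without control 3). Ncam1, the main carrier of polysialic acid, was at -0.62 (95% interval -1.67 to 0.43).

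**Figure D5:**
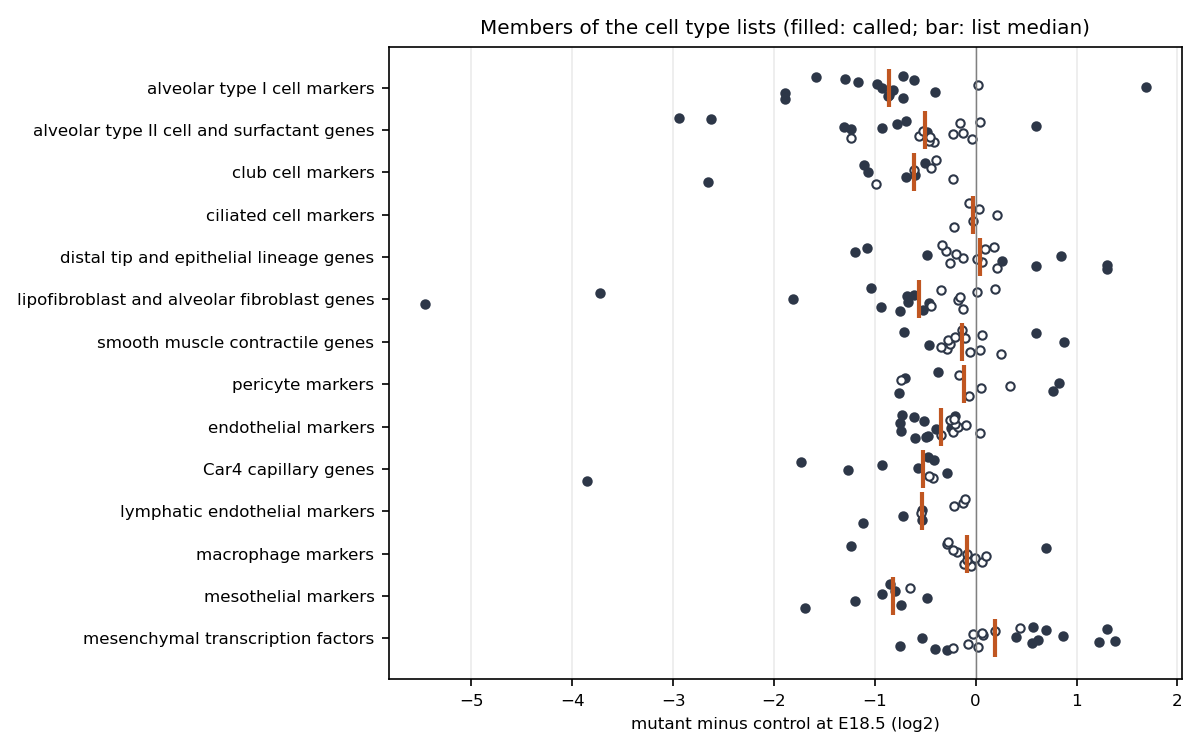
E18.5 mutant minus control difference (log2) of each tested member of 14 lists of cell types and lineage factors, filled where called, with a bar at the list median. Type I cell, capillary and mesothelial members lie mostly left of 0, ciliated cell members near 0, and lineage factors on both sides.

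Some members above are also markers of tissues at the edge of a dissected lobe, whose levels moved with the groups. Of 8 tested mesothelial markers 7 were called lower with and without control 3, and 0 higher (median -0.82, -0.78 without control 3), with a mean level of 9.53 to 9.71 in controls 1, 2, 4 and 5, 9.93 in control 3 and 8.45 to 9.08 in the mutants. The defining markers Wt1 and Bnc1 were dim. The surface protein Upk3b fell by 0.74 (SE 0.19, adjusted p = 0.00525, -0.59 without control 3), and Msln, mesothelin, fell by 1.70 (SE 0.63, -1.86 without control 3), but Msln did not pass without control 1, 2, 4 or 5 or mutant 1, 2 or 4 (adjusted p = 0.0759 to 0.0918, difference -1.67 to -1.58), nor without the filter on dim genes (adjusted p = 0.0766) or with sex as a covariate (adjusted p = 0.0645). Of the cartilage genes, 3 of 10 tested members were called higher and 2 lower, against 4 and 2 without control 3 (median 0.42, 0.50 without control 3), with a mean level of 4.90 to 5.03 in controls 1, 2, 4 and 5, 5.53 in control 3 and 5.40 to 6.07 in the mutants. Col9a1 read 4.11, 4.002, 6.60, 3.63 and 3.23 in controls 1 to 5 and 8.19, 8.27, 6.33, 8.54 and 6.54 in mutants 1 to 5 and rose by 3.26 (SE 0.50, adjusted p = 0.000102, 3.83 without control 3). Col9a3 rose by 2.34 (SE 0.49, 2.70 without control 3). The defining cartilage genes Acan, Matn1 and Comp were dim, and Col2a1 was at 0.45 (95% interval -0.43 to 1.32). The part of mesothelium in the fall of Krt19, and of cartilage in the rise of Sox9, was not tested.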

How the data were processed

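RNA of the left lung lobe was measured on Affymetrix Mouse430A_2 arrays, 1 animal per array, so replicates are separate animals. The authors deposited log2 values made with GCRMA (background correction, normalization and summary), as the submitters' processing notes state, without a version named in the sources used here. These values were not transformed again. Of the 22690 probe sets, 20380 name a single gene. Gene names come from the platform annotation, updated through RefSeq gene IDs for 20351 of these. Each of 12393 genes was read from its brightest such probe set, and 8068 genes with a log2 value above 4 in at least 5 of the 20 arrays were tested. Means of the 4 groups were estimated from 20 arrays by limma 3.58.1 (lmFit, eBayes) in R 4.3.3, two-sided, with Benjamini-Hochberg adjustment over 8068 genes and a call at an adjusted p under 0.05. The fit was repeated without E18.5 control 3. Differences are mutant minus control on the log2 scale, with limma standard errors (SE). The precision is limited by 5 arrays per group.

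The 60 gene lists hold 1191 entries, 1057 of them on the array. The members, lists and tests were chosen with earlier results of these data known. Named genes are Nr3c1, the 12 largest falls and rises among genes called in both fits with 5 of 5 mutants beyond all 5 controls, and up to 3 members per list called in both fits (2 as values where none was). Many list members outside this rule were added after their values were seen, among them most of those given with a 95% interval. They are not part of the counts of named genes. Alternatives covered the arrays in the fit, filters, normalization, probe set choice, variance model, array weights, sex, replicate numbers and leaving out each array. The code was tested on simulated data. Promoter windows are those of RefSeq for GRCm38.p6. Probe sets without a single gene name were not used.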

Additional observations from a re-analysis of the deposited data

Results flagged for a closer look

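In 71 of 326 groups of 5 E18.5 arrays, over the named genes, the lowest or highest array stood apart from the other 4 by more than 0.71 of the whole range of the group. Chance gives this in about 5% of groups. Control 3 accounted for 59 of the 71, as the lowest control in 39 and the highest in 20. Values below are log2, each with the range of the other 4 arrays of its group in brackets.

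Control 3 was lowest in Nr3c1 9.02 (9.47 to 9.57), Inmt 4.38 (8.71 to 9.38), Dpep1 9.44 (10.14 to 10.41), Xdh 7.83 (8.997 to 9.38), Lims2 5.18 (6.44 to 6.67), Slc7a10 4.43 (5.93 to 6.53) and Spon1 8.96 (10.13 to 10.39). It was lowest too in Ms4a4d 5.68 (7.31 to 7.69), Zbtb16 3.31 (5.93 to 6.25), Akr1c14 9.96 (10.997 to 11.07), Per2 6.95 (7.91 to 8.27), Npas2 4.45 (5.29 to 5.48), Fos 5.50 (7.18 to 7.54) and Klf4 10.76 (11.25 to 11.45). The low side also held Cdkn2b 8.91 (9.77 to 10.01), Nkd1 8.50 (9.24 to 9.47), Fgfr4 7.79 (8.65 to 8.87), Bmp2 4.56 (5.91 to 6.32), Igfbp6 9.38 (10.12 to 10.33), Eln 12.64 (13.07 to 13.24) and Adamts15 3.74 (5.02 to 5.25). To these came Timp3 10.88 (11.57 to 11.73), Scd1 11.28 (12.66 to 12.94), Scnn1a 5.54 (7.10 to 7.33), Scnn1g 8.49 (9.61 to 10.04), Gpx3 10.31 (11.45 to 11.55), Cp 7.58 (9.40 to 9.71) and C6 3.86 (6.49 to 7.15). Further low values were Hc 9.58 (11.28 to 11.80), Peg3 10.98 (11.16 to 11.22), Rtkn2 6.89 (9.09 to 9.50), Pon1 5.65 (9.55 to 10.22), S100g 7.65 (9.59 to 10.07), Icam2 11.27 (11.55 to 11.63) and Car4 5.38 (8.42 to 9.20). The last of these were Cyp4b1 8.13 (9.57 to 9.77), Lyve1 10.77 (11.29 to 11.42), Ryr2 4.45 (5.67 to 5.98) and Msln 10.21 (10.97 to 11.05). Control 3 was highest in Ccl11 9.03 (6.56 to 7.26), Vcan 9.73 (7.66 to 8.10), Lrr1 5.50 (3.80 to 4.28), Mdk 11.84 (10.52 to 10.66), Tpd52l1 6.41 (5.19 to 5.34), Hmmr 8.11 (5.68 to 6.18) and Kif23 9.28 (7.37 to 7.67). It was also highest in Igfbp2 9.37 (7.31 to 7.80), Fmod 11.11 (9.74 to 9.97), Fbn2 10.40 (9.24 to 9.56), Fbln1 10.30 (8.76 to 9.03), Col18a1 10.85 (9.27 to 9.43), Dgat2 6.81 (5.66 to 5.91) and Cldn6 6.56 (3.33 to 3.48). The high side ended with Prrx2 4.09 (1.98 to 2.33), Krt19 12.54 (12.05 to 12.13), Hbb-y 12.32 (7.95 to 8.95), Col9a1 6.60 (3.23 to 4.11), Gpm6a 8.09 (7.23 to 7.44) and Gap43 7.15 (5.96 to 6.24).

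Mutant 1 was lowest in Slc10a6 1.96 (2.07 to 2.10). Mutant 3 was highest in Lims2 3.03 (2.34 to 2.47) and Cdkn1a 7.04 (6.36 to 6.54). Mutant 4 was lowest in Gadd45g 8.51 (9.62 to 9.99), Npr3 7.24 (7.64 to 7.74), Ptgis 5.74 (6.22 to 6.35) and Alas2 10.13 (10.45 to 10.50). Control 2 was highest in G0s2 11.11 (10.92 to 10.97). Control 4 was highest in Cldn1 7.04 (6.66 to 6.75). Control 1 was highest in C1ra 6.18 (5.81 to 5.87). Mutant 5 was highest in Foxj1 6.73 (6.02 to 6.17) and Myl3 6.95 (5.35 to 5.72).

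The mutant effect differed between E16.5 and E18.5, by the limma test of the difference itself, in 23 of the 24 genes with the largest changes. Over all genes it was called in 678 of 8068 (8.4%). The 24 were chosen for their E18.5 difference, which is part of this test, so their count is a description. Genes that were dim in the E16.5 controls, such as Slc10a6, could show little or no fall at E16.5. From E16.5 to E18.5 the effect moved in Slc10a6 by -5.40 (from -0.13 to -5.53), Inmt by -5.45 (from -0.01 to -5.46), Dpep1 by -4.20 (from -0.76 to -4.95), Xdh by -3.60 (from -1.06 to -4.67), Lims2 by -3.74 (from 0.00 to -3.74) and Slc7a10 by -3.69 (from -0.04 to -3.73). It also moved in Fmo2 by -2.37 (from -1.32 to -3.69), Fmo1 by -2.27 (from -1.40 to -3.67), Spon1 by -3.24 (from -0.29 to -3.53), Lcn2 by -3.48 (from -0.04 to -3.52), Ms4a4d by -3.29 (from -0.22 to -3.51) and Rspo2 by 1.99 (from 1.39 to 3.37). Further such genes were St8sia2 by 1.78 (from 0.67 to 2.45), Cntn1 by 2.56 (from -0.24 to 2.32), Ccl11 by 2.44 (from -0.30 to 2.15), H2-Eb1 by 2.21 (from -0.07 to 2.14), Vcan by 1.97 (from 0.13 to 2.09) and Igdcc4 by 1.72 (from 0.37 to 2.09). The rest were Lrr1 by 1.83 (from 0.12 to 1.95), Mdk by 1.76 (from 0.15 to 1.91), Tpd52l1 by 1.36 (from 0.36 to 1.72), Prss35 by 1.21 (from 0.47 to 1.68) and Chaf1b by 1.43 (from 0.23 to 1.66). With sex as a covariate the difference was called in 9 of the 12 falls and 10 of the 12 rises.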

How the results depend on the processing

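The 24 genes with the largest changes kept their direction and their call in every alternative that gave them a value, and 133 of the 155 named genes that were called did so too. Most named genes were chosen from those called with and without control 3, and the 24 also for groups that do not overlap. This stability is therefore partly set by the choice of the genes. All 22 alternatives gave a value for 140 of 163 named genes, and 20 or 21 did for the rest, since the gene then fell below the filter. No named gene reversed in those run. The count of called genes, 2784, was 1645 at an adjusted p under 0.01 and 1060 with a change of at least 1.5-fold. It was 2377 with the 10 E18.5 arrays alone and 3739 with array weights, and the cause of these shifts was not tested. Leaving out 1 array at a time gave 2197 to 3355 genes in all, 1173 to 1851 higher and 1022 to 1504 lower, and 1945 genes were called in every one of these fits. The highest count in each case came without control 3. The number of genes whose effect differed between stages was 393 to 1445 with 1 array left out, and 403 with sex as a covariate, an alternative added after seeing the data. The effect of leaving out 1 array on the spread was not separated from the effect of the smaller number of arrays. With a replicate block the count was 2751 (1455 higher). Deviations of same-numbered arrays correlated between -0.43 and 0.21. No value for differently numbered arrays was set beside these, so they cannot decide whether the numbers pair the animals. With the 10 E18.5 arrays alone 15 named genes lost their call and Cox7a1 gained one, without the filter on dim genes 7 lost theirs, with a replicate block 5 and with sex as a covariate 4. Of 51 named genes with 2 or more tested probe sets, 0 had probe sets of opposite sign, and in Col9a1, Gli2 and Slc38a4 some probe sets only were called. Signals near the floor limit the size of a fold change: the low group was dim in 5 of the 12 largest falls and in 1 of the 12 largest rises.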

Other observations

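Lists outside the lung's own cell types were read in the same way, against 18.6% higher and 15.9% lower over all genes. Of 4 tested neuron and Schwann cell genes 3 were called lower with and without control 3. Stmn2, a microtubule regulator of growing axons, read 7.20, 7.88, 7.67, 7.42 and 7.29 in controls 1 to 5 and 4.52, 5.73, 5.85, 5.08 and 5.73 in mutants 1 to 5 and fell by 2.11 (SE 0.30, adjusted p = 4.42e-05, -2.07 without control 3). The growth cone protein Gap43 fell by 1.52 (SE 0.21, adjusted p = 3.25e-05, -1.32 without control 3) and the myelin protein Mbp fell by 0.45 (SE 0.09, -0.52 without control 3). The defining Schwann cell gene Sox10 and the neuronal genes Tubb3 and Th were dim. Of 15 tested cardiac muscle genes 2 were called higher and 1 lower, shares below those over all genes. The ventricular light chain Myl2 read 2.47, 2.87, 3.61, 4.51 and 2.66 in controls 1 to 5 and 4.46, 4.57, 4.60, 4.18 and 5.62 in mutants 1 to 5 and rose by 1.46 (SE 0.31, adjusted p = 0.00156, 1.56 without control 3), and its partner Myl3 rose by 1.78 (SE 0.42, adjusted p = 0.0036, 1.39 without control 3). The atrial light chains Myl4 and Myl7 were at -0.11 (95% interval -1.02 to 0.81) and -0.29 (95% interval -1.10 to 0.52), and the calcium release channel Ryr2 fell by 1.32 (SE 0.30, -1.60 without control 3). Of 5 skeletal muscle genes Ckm, the muscle creatine kinase, fell by 1.96 (SE 0.42, adjusted p = 0.0017, -1.64 without control 3), and Des was at -0.47 (SE 0.15, -0.39 without control 3), called with all arrays and not without control 3. Des missed the threshold in 5 of the 12 fits on fewer arrays (adjusted p up to 0.144), which left out 1 E18.5 array in turn or used the E18.5 arrays alone. The mean of this list was 5.66 to 6.99 in controls 1, 2, 4 and 5, 7.57 in control 3 and 4.96 to 5.45 in the mutants.

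Of 6 tested erythroid genes 1 was called higher and 2 lower. The embryonic globin Hbb-y read 8.54, 7.95, 12.32, 8.72 and 8.95 in controls 1 to 5 and 8.84, 7.20, 5.76, 7.28 and 7.09 in mutants 1 to 5, with control 3 far above the rest. It fell by 2.06 (SE 0.66, adjusted p = 0.0216, -1.31 without control 3), but Hbb-y did not pass without mutant 3 (adjusted p = 0.0585, difference -1.69), nor with the 10 E18.5 arrays alone (adjusted p = 0.0738), with the 9 E18.5 arrays other than control 3 (adjusted p = 0.0598) or with a replicate block (adjusted p = 0.0557). Alas2, the first enzyme of heme synthesis in red cells, fell by 0.78 (SE 0.19, -0.75 without control 3), and the carbonic anhydrase Car2 rose by 0.28 (SE 0.07, 0.27 without control 3). The liver genes Alb and Afp were at -0.83 (95% interval -1.94 to 0.28) and -0.59 (95% interval -2.29 to 1.11), and of the brown fat genes Cox7a1 was at -0.50 (95% interval -1.05 to 0.04) and Ppargc1a at 0.32 (95% interval -0.10 to 0.73). The neuroendocrine genes Uchl1 and Grp were at 0.95 (SE 0.48, 1.55 without control 3) and -0.32 (95% interval -0.79 to 0.14), and Uchl1 was called without control 3 only (adjusted p = 0.000677). None of the 12 thymocyte and T cell genes on the array was bright enough to be tested. Of 33 ribosomal protein genes 9 were called higher and 0 lower, with 11 and 0 without control 3 (median 0.09, 0.11 without control 3). Rps25 rose by 0.58 (SE 0.14, 0.63 without control 3), Rpl14 rose by 0.54 (SE 0.12, 0.65 without control 3) and Rps6 rose by 0.26 (SE 0.07, 0.22 without control 3). Rps6 did not pass with the 9 E18.5 arrays other than control 3 (adjusted p = 0.0532) or with the mean of its probe sets (adjusted p = 0.0634). Of the other called members, Rpl35, Rpl11, Rpl37 and Rps26 missed the threshold in 11, 9, 7 and 7 of the 12 fits on fewer arrays. Their adjusted p reached 0.0924, 0.121, 0.108 and 0.0914. Rpl8 missed it in 1 (adjusted p = 0.0568). Of 43 subunits of oxidative phosphorylation 3 were called higher with all arrays, a share below that over all genes, 11 without control 3, and 0 lower (median 0.07, 0.12 without control 3), with Ndufa5, Sdhc and Ndufa2 at 0.33 (SE 0.07, 0.37 without control 3), 0.24 (SE 0.07, 0.26 without control 3) and 0.19 (SE 0.05, 0.22 without control 3).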
